A study of Bubalus bubalis with 8 samples.

Results

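The TRiC chaperonin, also called CCT, was followed in buffalo mammary epithelial cells (MECs) after heat stress through the mRNA of its subunits. All probes of the 44 K bovine array that carry the gene name TCP1, CCT2, CCT3, CCT4, CCT5, CCT6A, CCT7 or CCT8 were taken, which gave 22 probes for 8 of the 24839 gene names on the array. The primary MECs came from the mammary gland of riverine buffalo (Bubalus bubalis), were at passage 10, and were heated at 42 °C for 1 h before recovery at 37 °C. RNA was taken at 7 time points of recovery, from 30 min to 24 h, and the control (CTR) was an unstressed plate kept at 37 °C. Each condition was read on 1 array, so the differences have no replicates behind them and no test was possible. The control wells lay on 1 plate and all heated wells on another, so plate and heat cannot be told apart. The labels do not say when the control was harvested. Buffalo RNA was read on probes designed from cattle sequence.

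TRiC is the chaperonin of the cytosol. Its subunits form a pair of stacked rings, each ring holding one copy of every subunit, and newly made proteins fold in the closed chamber as ATP is hydrolysed. Actin and tubulin are its best known substrates, and the co-chaperone prefoldin delivers them to the ring. As the subunits work in a fixed ratio, the data were examined for whether their mRNAs moved together.

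Values are log2 intensities above the 75th percentile of each array, and a change is the value at a time point minus the value in CTR. The relative change is the change minus the median change of all genes measured at that time point, which cancels any shift of a whole array. The CTR, 8 h, 12 h and 24 h arrays shared one slide (slide 1), while the 30 min, 2 h, 4 h and 16 h arrays shared another (slide 2), so for the latter 4 time points heat and slide cannot be told apart in a change from CTR. The CTR array was dark at rows 216 to 330 and columns 30 to 59. In that region lay 2 of the 22 probes, both of CCT4. They were left out of the gene changes from CTR but not of the differences within a slide, which do not use CTR. By the deviation of the bright probes around each position, 299 positions were dark on the 16 h array, against 2004 on CTR. For 30 min the deposited log2 table was used. It is centred per probe and holds differences but no levels, so a 30 min level given here is the CTR level plus the deposited difference between 30 min and CTR. The 30 min scanner file was dim, with a 75th percentile of 48.6 intensity units against 121 (16 h) to 423 (12 h) on the other arrays, it marked 9 of the 22 probes as well above background, and its changes from CTR differed from the deposited ones by a median of -1.55. By the scanner mark, and at 30 min by a limit taken from the other arrays, 18 of the 22 probes were well above background on all 8 arrays and none was saturated. Their GC content was 35% to 45%, with a median of 41.7% against 45% over all probes. The share of all probes well above background ran from 20.8% (30 min, scanner file) to 40.2% (2 h). The SD between spots of one probe gave a change of 1 probe an error of 0.29 (8 h) to 0.45 (16 h) on the log2 scale. This SD came from 15 (CTR) to 24 (2 h) repeated probes per array, none of them a subunit probe, as these have 1 spot each. The deposited 30 min values have no spots, so the SD of CTR stood in for that of 30 min. Fewer cells with a transcript and less of it per cell cannot be told apart in these bulk samples.

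The probe sequences of CCT6A, CCT5, CCT7 and CCT4 are shown because probes of these genes disagreed with each other. All are 60 bases long and are written 5′ to 3′ along the transcript, with positions on cattle build Btau 3.1 as the array files give them. The strand was read from the order in which the file writes start and end.

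CCT6A has 5 probes on the plus strand of chromosome 25, listed from the 5′-most to the 3′-most. Capitals mark the bases that a pair of probes share. The first crosses an intron, as its 60 bases span 946 bases of genome at chr25:29557585-29558530. The others lie at chr25:29561591-29561650, chr25:29561696-29561755, chr25:29562306-29562365 and chr25:29562311-29562368. The last 2 share 53 bases and are close to a repeat of one measurement.
CCT6A A_73_P203067: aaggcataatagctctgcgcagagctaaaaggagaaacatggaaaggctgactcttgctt
CCT6A A_73_P466518: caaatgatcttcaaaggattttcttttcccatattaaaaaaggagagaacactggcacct
CCT6A A_73_101098: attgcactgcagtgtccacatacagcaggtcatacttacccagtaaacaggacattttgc
CCT6A A_73_P372406: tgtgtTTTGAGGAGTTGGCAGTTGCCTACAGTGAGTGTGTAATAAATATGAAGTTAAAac
CCT6A A_73_P313346: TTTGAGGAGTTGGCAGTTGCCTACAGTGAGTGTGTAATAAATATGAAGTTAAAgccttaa

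CCT5 has 3 probes on the minus strand of chromosome 20, at chr20:66722532-66722591, chr20:66722488-66722547 and chr20:66718293-66718352, again listed from 5′ to 3′. The first 2 overlap by 16 bases (capitals), and the third lies 4239 bases of genome downstream of the first.
CCT5 A_73_P127386: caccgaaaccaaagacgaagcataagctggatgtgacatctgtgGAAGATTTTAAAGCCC
CCT5 A_73_P070191: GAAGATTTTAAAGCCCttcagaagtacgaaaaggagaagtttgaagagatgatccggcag
CCT5 A_73_120889: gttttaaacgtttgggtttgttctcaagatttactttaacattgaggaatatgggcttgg

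CCT7 has 2 probes on the minus strand of chromosome 11, at chr11:11666768-11666827 and chr11:11663209-11663268, and the first is the 5′ one.
CCT7 A_73_P413036: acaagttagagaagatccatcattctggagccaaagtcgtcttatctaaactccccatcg
CCT7 A_73_107796: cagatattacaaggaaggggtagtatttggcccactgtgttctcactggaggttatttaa

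CCT4 also lies on the minus strand of chromosome 11, with probes at chr11:62456456-62456515, chr11:62454364-62454423 and chr11:62453954-62454013. The first and the last of these are the ones in the dark region of the CTR array.
CCT4 A_73_P474288: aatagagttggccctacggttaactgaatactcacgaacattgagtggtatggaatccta
CCT4 A_73_P251146: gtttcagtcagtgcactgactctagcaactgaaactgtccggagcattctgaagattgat
CCT4 A_73_P032786: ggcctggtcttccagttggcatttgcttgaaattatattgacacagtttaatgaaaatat

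Against other genes the subunits stood above the median at 8 h and 12 h and below it at 16 h and 24 h. At 8 h, on the slide of CTR, the median relative change of the 8 subunits was 0.37 (log2), and 7 of 8 lay above the median of all genes, where 50% of genes lie by definition. At 12 h the median relative change was 0.21, with 6 of 8 above. At 24 h it was -0.34, with 7 of 8 below, and at 16 h it was -0.53, again with 7 of 8 below. The sign of each of these 4 medians held in all 13 alternative settings, but their size did not. The 8 h median ran from 0.31 to 0.39 over these settings, the 12 h median from 0.09 to 0.64, the 16 h median from -0.70 to -0.27 and the 24 h median from -0.90 to -0.06. With the brightest probe of each gene, the 24 h median was -0.06 and 4 of 8 lay below, against 7 of 8. The order of the time points also depended on the setting. Without the filter on dim probes, 4 h was the highest (1.29, with 8 h at 0.39) and 24 h the lowest, and with the 5′-most probe, 12 h was the highest (0.57) and 30 min the lowest (-0.41). At 30 min, 2 h and 4 h the medians were -0.21, 0.03 and 0.01, and at each of them the sign depended on the setting. CTR enters each of these changes, so the time points are not independent of each other.

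On the plain scale, the median change of the subunits from CTR was 0.25 (8 h), -0.07 (12 h) and -0.46 (24 h) on slide 1 and -0.41 (30 min), -0.37 (2 h), -0.16 (4 h) and -0.54 (16 h) on slide 2. The median of all genes was itself -0.12 (8 h), -0.28 (12 h) and -0.12 (24 h) on slide 1 and -0.20 (30 min), -0.39 (2 h), -0.17 (4 h) and -0.0041 (16 h) on slide 2. Of the 8 subunits, 2 (8 h), 5 (12 h) and 8 (24 h) on slide 1 and 7 (30 min), 7 (2 h), 6 (4 h) and 7 (16 h) on slide 2 were lower than CTR. Of all genes, 61.1% (8 h), 73.7% (12 h) and 61.8% (24 h) on slide 1 and 61.1% (30 min), 69.8% (2 h), 59.4% (4 h) and 50.2% (16 h) on slide 2 were. Centring each array on its median in place of its 75th percentile moved the median of all genes up by 0.96 at 30 min, 0.70 at 2 h and 1.09 at 4 h, and with it turned the sign of the subunit median at these 3 time points. It also turned the sign at 12 h, to 0.16, and 8 of 14 alternatives kept the 12 h sign. The subunits are therefore described relative to all genes.

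No subunit was at least 2-fold higher than CTR at any time point, while of all genes 2.13% (8 h), 0.679% (12 h) and 0.637% (24 h) on slide 1 and 7.67% (30 min), 5.51% (2 h), 5.76% (4 h) and 9.24% (16 h) on slide 2 were. At least 2-fold lower were CCT6A at 16 h (2.08-fold, over 4 probes) and CCT5 at 24 h (2.02-fold, over 2 probes), and no other subunit value was. Of all genes 2.57% (8 h), 5.65% (12 h) and 3.04% (24 h) on slide 1 and 13.8% (30 min), 21.9% (2 h), 13.4% (4 h) and 9.9% (16 h) on slide 2 were at least 2-fold lower. The CCT5 value was nearer to CTR than 2-fold under 5 of 14 alternative settings, at the least -0.64 with the 3′-most of the probes measured at 24 h, which is the second of the 3, and the CCT6A value under 3 of 14, at the least -0.57 with the brightest probe. With only the 5′-most probe of each gene, 8 of the 56 subunit values were at least 2-fold lower, and with only the 3′-most probe 1 was.

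**Figure D1:**
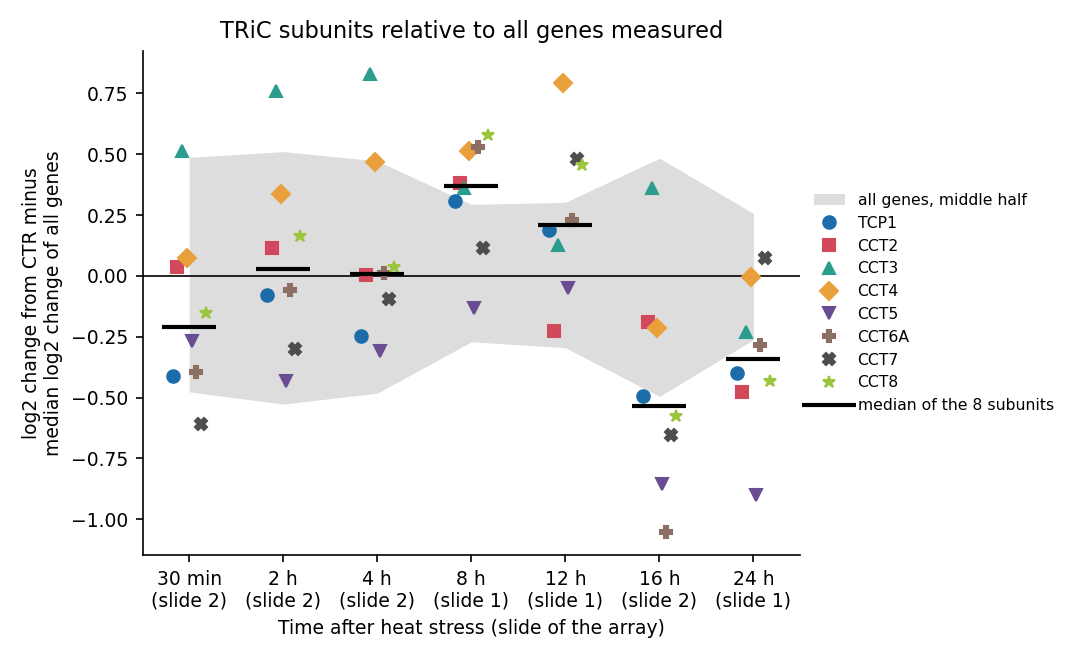
Relative change of each TRiC subunit at each time point (y axis: log2 change from CTR minus the median log2 change of all genes measured; x axis: time after heat stress with the slide of the array). Symbols are subunits, the black bar is the median of the 8 and the grey band the middle 50% of all genes; each symbol is a mean over 1 to 4 probes on 1 array. The bar lies at 0.37 at 8 h and at -0.53 at 16 h. Which time point is highest or lowest depended on the setting, being 4 h and 24 h without the filter on dim probes and 12 h and 30 min with the 5′-most probe, as did the sign at 30 min, 2 h and 4 h.

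The comparison within a slide that leaves out CTR gave an order among the time points themselves. On slide 1 the subunits stood 0.61 higher at 8 h than at 24 h relative to all genes, and 0.51 higher at 12 h than at 24 h. All 8 subunits were higher at 8 h than at 24 h, from 0.04 for CCT7 to 1.09 for CCT8, where 52.8% of all genes were higher. All 8 were also higher at 12 h than at 24 h, where 36.2% of all genes were, from 0.09 for CCT2 to 0.86 for CCT5. On slide 2 all 8 were higher at 4 h than at 16 h, from 0.03 for CCT2 to 0.90 for CCT6A, against 42.3% of all genes. The smallest of these differences are within the error of 1 probe, 0.33 (8 h minus 24 h), 0.35 (12 h minus 24 h) and 0.46 (4 h minus 16 h). Of the 8 subunits, 4 were higher at 30 min than at 16 h and 5 at 2 h, against 38.1% and 30.4% of all genes. Relative to all genes the subunit median stood above 16 h by 0.20 at 30 min, 0.36 at 2 h and 0.47 at 4 h. These 5 medians kept their sign in all 12 alternative settings. For 30 min minus 16 h, 7 of 8 subunits lay above the median of all genes, and 5 with the brightest or the 5′-most probe. For 12 h minus 24 h the count stayed at 8. For the remaining contrasts it fell from 8 to 7 in some settings. Examples are 8 h minus 24 h with quantile normalization and 4 h minus 16 h with the brightest probe. The contrasts on one slide share the 16 h or the 24 h array and are not independent of each other, and the contrasts with 24 h were added after the data had been seen.

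The changes of the subunits were spread less than those of all genes. At 5 of 7 time points their SD was also below the SD between probes of a single subunit, but these are unlike measures. Subunit values with several probes are means, which narrows their spread. The comparison with single probes therefore cannot show whether the subunits moved together. The SD of the 8 subunit changes was 0.24 (8 h), 0.32 (12 h) and 0.30 (24 h) on slide 1 and 0.35 (30 min), 0.37 (2 h), 0.38 (4 h) and 0.44 (16 h) on slide 2, while the SD over all genes ran from 0.43 (24 h) to 0.93 (2 h). Under alternative settings the subunit SD ran from 0.22 to 0.64 at 30 min, 0.32 to 0.52 at 12 h and 0.25 to 0.51 at 24 h. The interquartile range of the subunit changes was 0.34 at 2 h against 1.04 for all genes, and 0.26 at 8 h against 0.56. Within a subunit, the SD between the probes that entered its mean had a median of 0.29 (8 h), 0.37 (12 h) and 0.53 (24 h) on slide 1 and 0.75 (30 min), 0.62 (2 h), 0.30 (4 h) and 0.44 (16 h) on slide 2. In other genes with several probes this median was 0.36 at 30 min, 0.40 at 2 h and 0.26 at 8 h. The spread between probes was the smaller one at 4 h and 16 h. CCT2 and CCT3 have a single probe and no such spread.

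TCP1 (CCT1, the alpha subunit) is the founding member of the family. Its 4 probes map to an unplaced cattle contig. The 3′-most probe (A_73_103673) read 3.49 (CTR), 3.59 (8 h), 3.23 (12 h) and 3.24 (24 h) on slide 1 and 3.33 (30 min), 3.37 (2 h), 3.02 (4 h) and 3.57 (16 h) on slide 2, and so stayed within 0.56 over the 8 arrays. The probe 99 bases upstream (A_73_P256166) read 2.20 (CTR), 2.43 (8 h), 2.00 (12 h) and 0.80 (24 h) on slide 1 and 1.39 (30 min), 1.48 (2 h), 1.32 (4 h) and 1.12 (16 h) on slide 2. It was lowest at 24 h, with a change from CTR of -1.40, while the changes of the other 3 were between -0.33 and -0.09. The 5′-most probe (A_73_P281481) ran from 0.51 at 30 min to 1.46 at 4 h, and the next one (A_73_P498413) from 1.30 at 16 h to 2.48 at 8 h. The bright probes around the latter deviated by 0.52 on the CTR array and by -0.35 on the lowest of the other arrays. The part of its position in the TCP1 values was not tested. Over its probes the relative change of TCP1 was 0.31 (8 h), 0.19 (12 h) and -0.40 (24 h) on slide 1 and -0.41 (30 min), -0.08 (2 h), -0.25 (4 h) and -0.49 (16 h) on slide 2. At 8 h all 4 probes were above CTR, from 0.08 to 0.35, which is less than the error of a single change for 3 of them.

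CCT2 (beta) and CCT3 (gamma) have 1 probe each. CCT2 read 4.04 (CTR), 4.30 (8 h), 3.53 (12 h) and 3.44 (24 h) on slide 1 and 3.87 (30 min), 3.75 (2 h), 3.87 (4 h) and 3.84 (16 h) on slide 2. The bright probes around the CCT2 probe deviated by 0.40 on the CTR array and by -0.36 on the lowest of the other arrays. The part of its position in the CCT2 values was not tested. CCT2 was highest at 8 h and lowest at 24 h, a span of 0.86 on the same slide. Its relative change was 0.38 (8 h), -0.22 (12 h) and -0.48 (24 h) on slide 1 and 0.04 (30 min), 0.11 (2 h), 0.0021 (4 h) and -0.19 (16 h) on slide 2. CCT3 read 5.76 (CTR), 6.00 (8 h), 5.60 (12 h) and 5.41 (24 h) on slide 1 and 6.07 (30 min), 6.12 (2 h), 6.42 (4 h) and 6.12 (16 h) on slide 2. Its relative change was 0.36 (8 h), 0.13 (12 h) and -0.23 (24 h) on slide 1 and 0.52 (30 min), 0.76 (2 h), 0.83 (4 h) and 0.36 (16 h) on slide 2. CCT3 stood above the mean of the other 7 subunits at 6 of 7 time points, all but 12 h, and was the one subunit above the median of all genes at 16 h. Its 4 arrays on slide 2 were all higher than its 4 arrays on slide 1.

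CCT4 (delta), in which a mutation causes a sensory neuropathy in the rat, gave changes of different size and sign depending on the probe. The probe outside the dark region (A_73_P251146) read 4.25 (CTR), 4.64 (8 h), 4.76 (12 h) and 4.13 (24 h) on slide 1 and 4.12 (30 min), 4.19 (2 h), 4.55 (4 h) and 4.03 (16 h) on slide 2. The 3′-most probe, inside the region (A_73_P032786), read 3.92 (CTR), 5.85 (8 h), 5.56 (12 h) and 5.27 (24 h) on slide 1 and 5.55 (30 min), 5.56 (2 h), 5.52 (4 h) and 4.94 (16 h) on slide 2, and was lowest on the CTR array. The 5′ probe in the region (A_73_P474288) read 2.89 (CTR), 4.06 (8 h), 4.32 (12 h) and 3.84 (24 h) on slide 1 and 3.38 (30 min), 3.65 (2 h), 4.00 (4 h) and 3.18 (16 h) on slide 2, also lowest on the CTR array. The bright probes around these 2 deviated from the median of the other arrays, in the median, by -0.76 and -0.55 (log2) on the CTR array, and 0.16 around the probe outside. Their changes from CTR were between 0.29 and 1.93, and those of the probe outside between -0.22 and 0.51. With the probes in the region kept, 3 of the 56 subunit values were at least 2-fold higher than CTR, all of them CCT4, against 0 without them.

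Against 24 h, an array on the slide of CTR, all 3 probes could be set side by side, as the bright probes around them deviated by no more than -0.24 downwards on any heated array. From 24 h to 12 h they differed by 0.48, 0.63 and 0.28, from the 5′ probe to the 3′ one, and from 24 h to 8 h by 0.23, 0.51 and 0.58. By the probe outside the region, the relative change of CCT4 was 0.51 (8 h), 0.79 (12 h) and -0.0043 (24 h) on slide 1 and 0.07 (30 min), 0.34 (2 h), 0.47 (4 h) and -0.21 (16 h) on slide 2. It stood above the mean of the other subunits at all 7 time points.

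**Figure D2:**
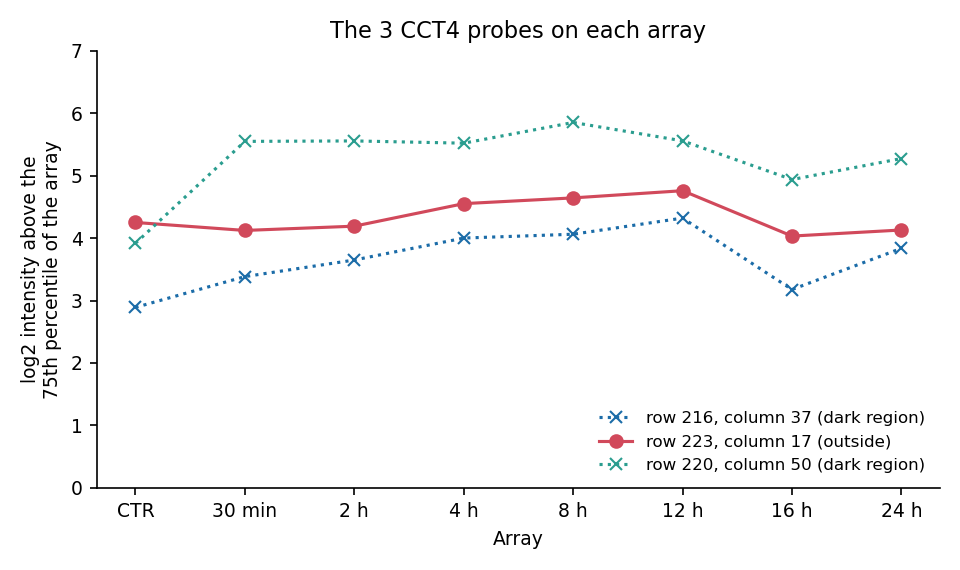
Level of the 3 CCT4 probes on each array (y axis: log2 intensity above the 75th percentile of the array; x axis: array; 1 spot per probe and array, no error bar). Crosses on dotted lines are the probes in the region dark on the CTR array, and both are lowest on that array, at 3.92 and 2.89; the probe outside (circles) reads 4.25 there and between 4.03 and 4.76 elsewhere.

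CCT5 (epsilon), mutated in a hereditary sensory neuropathy of man, was the lowest subunit at 2 h, 4 h, 8 h and 24 h. The 5′-most probe (A_73_P127386) read 3.12 (CTR), 2.46 (8 h), 2.77 (12 h) and 1.73 (24 h) on slide 1 and 1.94 (30 min), 2.09 (2 h), 2.59 (4 h) and 2.27 (16 h) on slide 2. CTR was its highest array. The bright probes around it deviated by 0.46 on the CTR array and by -0.55 on the lowest of the other arrays. The part of its position in the CCT5 values was not tested. The probe that overlaps it (A_73_P070191) read 1.97 (CTR), 1.46 (8 h), 2.02 (12 h) and 1.33 (24 h) on slide 1 and 0.08 (30 min), 0.42 (2 h), 1.22 (4 h) and -0.22 (16 h) on slide 2, and did not clear the background on the 30 min and 16 h arrays. It was at least 3.31-fold lower than in CTR on the first of these and at least 4.54-fold lower on the second. The 3′-most probe (A_73_120889) read 0.20 (CTR), 0.62 (8 h), -0.49 (12 h) and -0.78 (24 h) on slide 1 and 0.45 (30 min), 0.30 (2 h), 0.05 (4 h) and -1.21 (16 h) on slide 2, and was not well above background at 16 h and 24 h. At 16 h that probe was at least 1.45-fold lower than in CTR, and at 24 h its level in CTR was under the limit of the 24 h array, so no fold is given.

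The relative change of CCT5 over the probes measured was -0.13 (8 h), -0.05 (12 h) and -0.90 (24 h) on slide 1 and -0.27 (30 min), -0.43 (2 h), -0.31 (4 h) and -0.85 (16 h) on slide 2, below 0 at all 7 time points. At 16 h it rested on the 5′-most probe alone. The probes differed in the sign of their changes. At 8 h the 3′-most probe was 0.42 above CTR and the 5′ pair -0.67 and -0.51, and at 12 h the 3′-most probe was at -0.69 and the 5′ pair at -0.36 and 0.05. Even the overlapping pair differed in its change by 0.16 (8 h) to 1.33 (16 h, where 1 of the pair was not well above background).

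CCT6A (zeta) has a paralogue made in the testis, CCT6B, whose 2 probes were not well above background on any array. The 5′-most CCT6A probe (A_73_P203067) was well above background at 2 h alone, where it read -1.81, and is given no fold. The next one (A_73_P466518) read 1.63 (CTR), 1.88 (8 h), 1.95 (12 h) and 1.11 (24 h) on slide 1 and 0.29 (30 min), 0.37 (2 h), 1.19 (4 h) and 0.03 (16 h) on slide 2. The probe at chr25:29561696-29561755 (A_73_101098) read 3.91 (CTR), 4.03 (8 h), 3.84 (12 h) and 3.87 (24 h) on slide 1 and 2.77 (30 min), 2.95 (2 h), 3.85 (4 h) and 3.34 (16 h) on slide 2. The pair that share 53 bases read 2.80 (CTR), 3.39 (8 h), 2.50 (12 h) and 2.34 (24 h) on slide 1 and 2.72 (30 min), 2.70 (2 h), 2.66 (4 h) and 1.43 (16 h) on slide 2 (A_73_P372406), and 2.48 (CTR), 3.15 (8 h), 2.31 (12 h) and 1.88 (24 h) on slide 1 and 2.65 (30 min), 2.99 (2 h), 2.50 (4 h) and 1.78 (16 h) on slide 2 (A_73_P313346). The last 2 were highest at 8 h and lowest at 16 h, where all 4 were below CTR. Relative to all genes CCT6A stood at 0.53 (8 h), 0.23 (12 h) and -0.29 (24 h) on slide 1 and -0.40 (30 min), -0.06 (2 h), 0.01 (4 h) and -1.05 (16 h) on slide 2.

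The near-identical CCT6A pair shows the size of difference that 2 probes of one stretch can have. Their changes from CTR differed by 0.08 at 8 h and by 0.67 at 16 h, with a median difference of 0.16 over the 7 time points. At 2 h, where they read -0.10 and 0.51, they differed by more than the error of a change between spots of one probe.

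CCT7 (eta) has a 5′ probe (A_73_P413036) that read 2.04 (CTR), 1.83 (8 h), 2.54 (12 h) and 2.07 (24 h) on slide 1 and 0.60 (30 min), 0.91 (2 h), 1.69 (4 h) and 1.33 (16 h) on slide 2. Its 3′ probe (A_73_107796) read 6.54 (CTR), 6.74 (8 h), 6.43 (12 h) and 6.43 (24 h) on slide 1 and 6.36 (30 min), 6.28 (2 h), 6.37 (4 h) and 5.94 (16 h) on slide 2. The 5′ probe spans 1.93 between its lowest and highest array and the 3′ probe 0.80. Over both, the relative change was 0.12 (8 h), 0.48 (12 h) and 0.07 (24 h) on slide 1 and -0.61 (30 min), -0.30 (2 h), -0.09 (4 h) and -0.65 (16 h) on slide 2. CCT7 was the lowest of the subunits at 30 min and the highest at 24 h.

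CCT8 (theta) was the highest subunit at 8 h. The middle probe (A_73_P101216) crosses an intron and read 4.55 (CTR), 5.51 (8 h), 5.25 (12 h) and 4.59 (24 h) on slide 1 and 4.38 (30 min), 4.41 (2 h), 4.63 (4 h) and 4.23 (16 h) on slide 2. It lies at row 320 and column 27, just beside the region dark in CTR, and the bright probes around it deviated by -0.36 there and by no less than -0.33 on the other arrays. Its changes were 0.96 at 8 h and 0.70 at 12 h, against 0.12 and -0.50 for the 3′-most probe (A_73_109738) and 0.30 and 0.31 for the 5′-most (A_73_P054526). The part of its position in the 8 h value of CCT8 was not tested. The 3′-most probe read 4.37 (CTR), 4.49 (8 h), 3.88 (12 h) and 3.23 (24 h) on slide 1 and 4.18 (30 min), 4.29 (2 h), 4.47 (4 h) and 3.53 (16 h) on slide 2. The 5′-most probe was not well above background at 16 h and 24 h, at least 2.79-fold and at least 1.87-fold lower than in CTR. The bright probes around it deviated by 0.12 on the CTR array and by -0.51 on the lowest of the other arrays. Relative to all genes CCT8 stood at 0.58 (8 h), 0.45 (12 h) and -0.43 (24 h) on slide 1 and -0.15 (30 min), 0.16 (2 h), 0.04 (4 h) and -0.57 (16 h) on slide 2. CCT8 was the subunit nearest to the mean of the other 7 over time, with a root mean square difference of 0.16, and CCT3 the farthest, with 0.64.

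**Figure D3:**
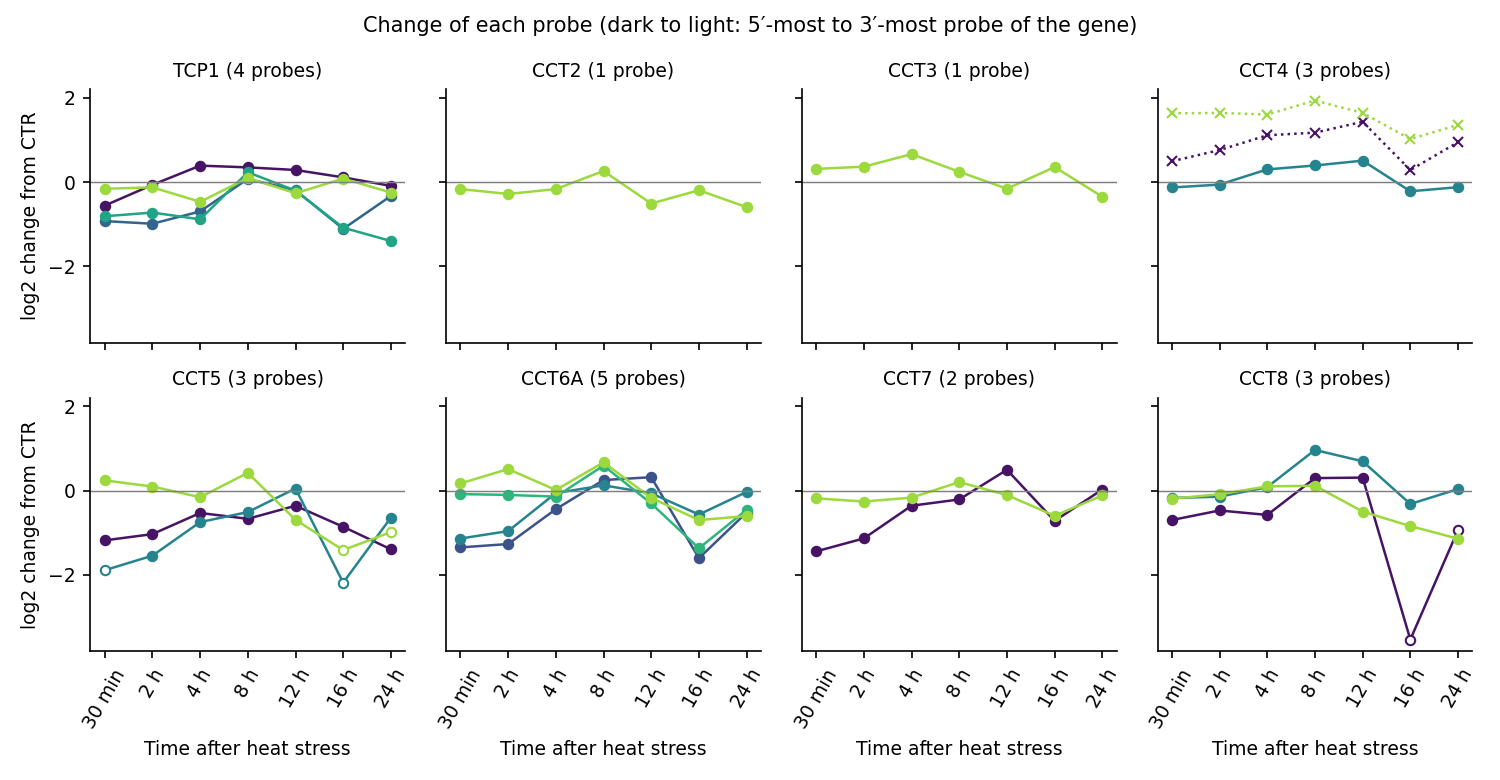
Change of each probe from CTR (y axis: log2; x axis: time after heat stress), 1 panel per subunit, with colour from dark (5′-most) to light (3′-most). Filled circles are probes well above background in CTR and at that time, open circles those not well above background at that time, and crosses on dotted lines the CCT4 probes in the dark region of the CTR array; the CCT6A probe that was not well above background in CTR is not drawn. At 30 min the 5′ probes of CCT5, CCT6A and CCT7 lie near -1.18, -1.35 and -1.44 and their 3′-most probes at 0.24, 0.17 and -0.18.

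At 30 min the 5′-most probe of every subunit tested stood lower against CTR than the 3′-most one, a comparison made after the probe values had been seen. For the 5 subunits with a usable probe at both ends, 718 to 6624 bases of genome apart, the change of the 5′-most probe minus that of the 3′-most probe at 30 min was -1.52 for CCT6A, -1.42 for CCT5, -1.26 for CCT7, -0.51 for CCT8 and -0.40 for TCP1. All 5 were below 0, as were 57.3% of 1350 other genes, whose median difference was -0.12. The probes of other genes lay a median of 512.5 (30 min) to 758 (12 h) bases apart. This is mostly less than in the subunits, so other genes are not a matched background. At 2 h the differences were -1.78 for CCT6A, -1.13 for CCT5, -0.88 for CCT7, -0.39 for CCT8 and 0.06 for TCP1, and 56.2% of other genes were below 0, with a median of -0.13. At 12 h the order was turned, with 0 of 5 subunits below 0, from 0.34 for CCT5 to 0.81 for CCT8, against 40.6% of other genes. At the remaining time points 4 of 5 were below 0 (4 h), 3 of 5 (8 h), 2 of 4 (16 h) and 1 of 5 (24 h), and of other genes 53.2% (4 h), 61% (8 h), 50.4% (16 h) and 36.8% (24 h). At 16 h and 24 h the CCT8 probes compared are 181 bases apart, and at 24 h the CCT5 ones, the single pair below 0, are 44 bases apart, as their outer probes were not well above background.

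Within slide 2, where CCT4 could be used and CCT5 could not and the CCT8 probes compared were 181 bases apart, the sign was the same for 30 min and 2 h and not for 4 h. The difference between both ends for 30 min minus 16 h was below 0 in 5 of 5 subunits, with a median of -0.51, and for 2 h minus 16 h in 4 of 5, with a median of -0.58, where 57% and 56.5% of other genes were below 0, while the medians of other genes were -0.12 and -0.11. For 4 h minus 16 h it was below 0 in 2 of 5, with a median of 0.24, against 52.9% of other genes. In these contrasts the probes of other genes lay a median of 501 (30 min minus 16 h) to 680 (4 h minus 16 h) bases apart. With only the 3′-most probe of every gene, the relative change of the subunit median was 0.04 at 30 min and 0.30 at 2 h, and with only the 5′-most probe it was -0.41 and 0.04. At 8 h both gave a like value, 0.36 and 0.39. The part of the probe position in the 30 min and 2 h values of single subunits was not tested further.

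**Figure D4:**
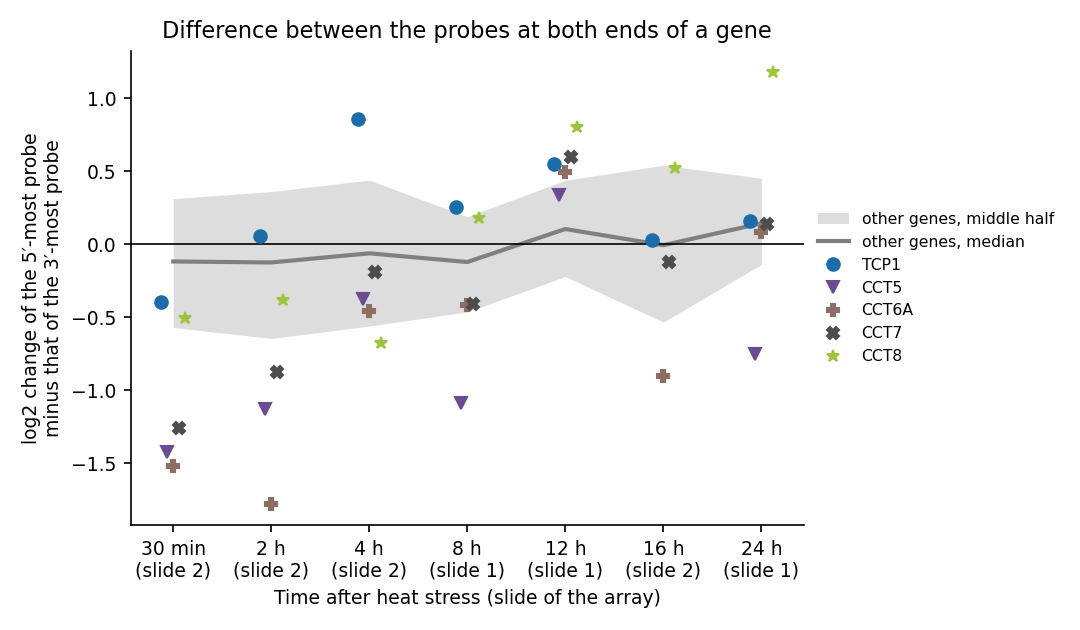
Difference between the ends of a gene (y axis: log2 change from CTR of the 5′-most probe minus that of the 3′-most probe; x axis: time after heat stress with the slide of the array). Symbols are the 5 subunits with a usable probe at both ends (4 at 16 h, where CCT5 has none), the grey line is the median and the grey band the middle 50% of the other genes. The probes of other genes lay a median of 512.5 (30 min) to 758 (12 h) bases apart. At 30 min the symbols lie between -1.52 and -0.40, and at 12 h all lie above 0; at 24 h the CCT5 pair is 44 bases apart, and at 16 h and 24 h the CCT8 pair 181.

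Other parts of the folding system were set beside TRiC. From here on, medians of lists are relative to all genes, and values of single genes are changes from CTR on the plain scale. In the list of classical heat shock genes, 10 of 13 were measured. HSPA6, HSPB8 and CRYAB were not well above background in CTR and have no change, though each was on some arrays after heat. HSPB8 was so on all 3 probes at 2 h, 4 h and 8 h. In the main setting the list had its highest median relative change at 8 h too, 1.50. At 8 h 7 of 10 were at least 2-fold higher than CTR, against 2.13% of all genes. HSPA1A, the inducible HSP70, changed by 4.68 at 8 h and by -1.12 at 24 h, a gene named after its values were seen. At 16 h, where the TRiC median was lowest, the list stood at -0.40, with the constitutive HSP70 HSPA8 lowest at -1.27 and the small heat shock protein gene HSPB1 highest at 2.14. At 30 min, 2 h and 4 h the list stood 0.73, 0.74 and 0.68 above all genes, and the TRiC median at -0.21, 0.03 and 0.01. The heat shock medians kept their sign at all 7 time points in all 13 alternative settings, but not their order. The 2 h median reached 2.37 and the 4 h median 2.11, while the 8 h median was at most 1.71.

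The mitochondrial chaperonin, made of HSPD1 (HSP60) and its lid HSPE1 (HSP10), had relative medians of 0.69 (8 h), 0.31 (12 h), -0.72 (16 h) and -0.58 (24 h). In the main setting this is the order of TRiC from 8 h on, but HSPD1 and HSPE1 disagreed on the lowest time point. On the plain scale HSPD1 changed by 0.50 (8 h), -1.21 (16 h) and -0.85 (24 h), and HSPE1 by 0.65 (8 h), -0.24 (16 h) and -0.54 (24 h). As both sets are compared with the same CTR array, the likeness is a description of these arrays.

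Prefoldin, the hexamer that passes actin and tubulin to TRiC, had all 6 subunits measured. At 8 h its members were between -0.19 (PFDN4) and 0.15 (PFDN5), with VBP1 at -0.18, PFDN2 at 0.02, PFDN6 at 0.04 and PFDN1 at 0.12, and none reached 2-fold. At 16 h 3 of 6 were at least 2-fold lower than CTR, against 9.9% of all genes: PFDN4 (-2.28), PFDN2 (-1.46) and VBP1 (-1.37). PFDN1, PFDN5 and PFDN6 stood at -0.03, 0.24 and -0.16. On the plain scale VBP1 was also at least 2-fold lower at 30 min, 2 h and 4 h, with -1.30, -1.25 and -1.11. PFDN4 was so at 30 min, with -1.31. Of all genes 13.8%, 21.9% and 13.4% were at least 2-fold lower at 30 min, 2 h and 4 h. Centring on array medians shifts the plain scale up at these time points, as given above.

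Of the cofactors that act on the ring, PDCL, PDCL3 and TXNDC9 were measured. PDCL3 was below CTR at every time point on the plain scale, from -0.25 at 30 min to -0.94 at 12 h. TXNDC9, a phosducin-like regulator, stood at -0.80 at 30 min, -0.67 at 2 h and 0.01 at 8 h, and PDCL at 0.20 at 2 h and -0.73 at 12 h. Of the chaperonin-like genes, MKKS alone was measured, with -0.52 at 8 h and -1.03 at 12 h, and CCT6B, CCT8L2, BBS10 and BBS12 were not well above background on any array. Of the prefoldin-like genes UXT was at -0.36, URI1 at -0.42 and PDRG1 at 1.04 at 8 h, the last 2 named after their values were seen. The tubulin cofactors TBCA, TBCB, TBCE and ARL2, which take tubulin after TRiC, stood at -0.30, -0.26, 0.80 and -0.39 at 8 h. None of these lists held a gene that was at least 2-fold higher at 8 h apart from PDRG1, against 2.13% of all genes.

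The main substrates lay on the other side of the median of all genes from TRiC at 8 h. Of 13 actin and tubulin genes measured, all were below CTR at 8 h, 12 h and 16 h, and their relative median was -0.46 (8 h), -0.45 (12 h), -0.66 (16 h) and -0.33 (24 h), signs that held in all 13 alternative settings. Of all genes, 61.1% (8 h), 73.7% (12 h) and 50.2% (16 h) were below CTR. At 16 h TUBB2B was the lowest (-2.10) and ACTG1 the highest (-0.03). Among 6 other substrates, CDC20 was lowest (-0.57) and STAT3 highest (1.54) at 16 h, and the list median relative to all genes at 8 h was -0.02. Actin and tubulin genes are alike in sequence and their probes may share signal. The genes used as references for qPCR by the study stood at -0.54 (RPL4), 0.08 (EEF1A1) and -1.74 (RPS23) at 16 h and at -0.46, -0.39 and -0.28 at 8 h.

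**Figure D5:**
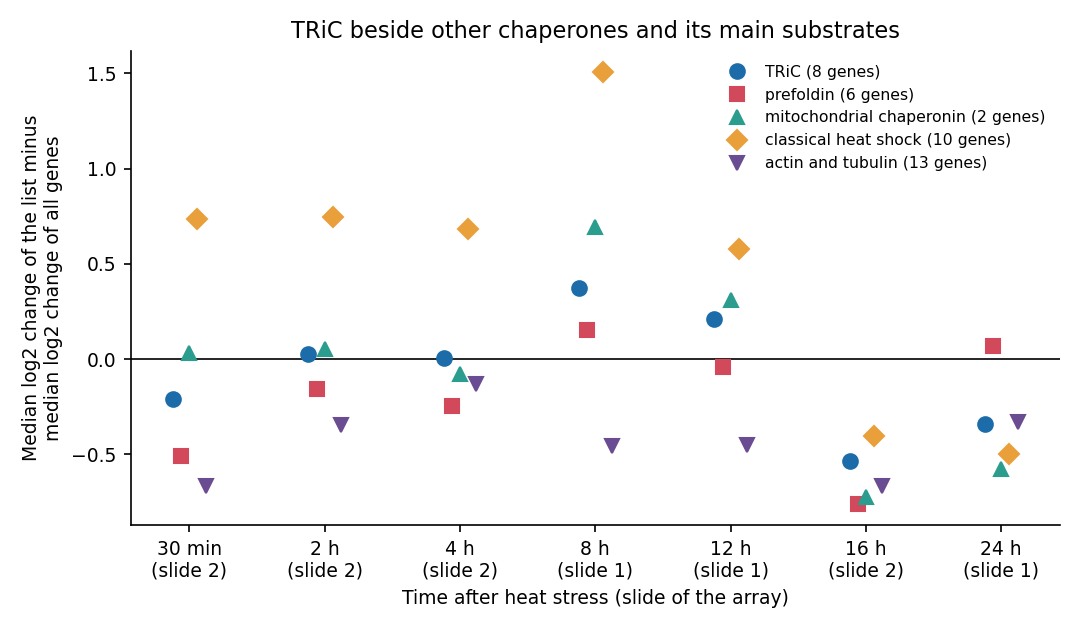
Median relative change of TRiC and of 4 other lists (y axis: median log2 change from CTR of the list minus the median log2 change of all genes; x axis: time after heat stress with the slide of the array; the number of genes measured is in the legend, no error bar). At 8 h the heat shock list stands at 1.50, the mitochondrial chaperonin at 0.69, TRiC at 0.37, prefoldin at 0.15 and actin and tubulin at -0.46. At 30 min, 2 h and 4 h the sign turned under at least 1 of 13 alternative settings for each list shown except the heat shock genes, as it did for prefoldin at 12 h and 24 h.

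Outside the folding system, the genes nearest to the mean of the subunits were sought among 5309 gene names measured at all 7 time points on probes well above background on all 8 arrays. They were DKC1, the pseudouridine synthase dyskerin (root mean square difference 0.07), the spliceosome helicase AQR (0.11), the nucleolar protein NOP16 (0.12), the phosphatase DUSP12 (0.13) and COQ7, an enzyme of ubiquinone synthesis (0.13). The subunits themselves lay 0.16 (TCP1) to 0.66 (CCT5) from that mean, to which each contributes and which rests on the probes bright on every array, and the median gene 0.57. The change of DKC1 from CTR was 0.06 (8 h), -0.33 (16 h) and -0.56 (24 h).

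The label of the cells was checked against marker genes. Of 7 epithelial markers (keratins, CDH1 and EPCAM), 6 or 7 were well above background on each array, and their summed level, in multiples of the 75th percentile, ran from 349 (30 min) to 928 (16 h). KRT18, whose protein the study stained to check purity, was well above background at 2 h (2 of 3 probes) and 16 h (1 of 3) alone, and not in CTR. Of 6 fibroblast markers 1 to 6 were detected, with a sum from 57.3 (4 h) to 186 (CTR). Among them VIM was detected on all 5 of its probes on every array. Of 5 leukocyte markers 2 to 5 were detected, with a sum from 8.48 (12 h) to 78.4 (30 min), and it was higher on every slide 2 array than on any slide 1 array. Of 3 endothelial markers 0 to 2 were detected, and CDH5 on none. The epithelial markers measured had a median change relative to all genes of -0.97 (30 min), -0.86 (2 h), -0.28 (4 h) and -0.16 (16 h) on slide 2. At 30 min 5 of 6 were at least 2-fold lower than CTR, against 13.8% of all genes, with KRT8 at -3.70. The fibroblast markers had -1.79 (2 h) and -1.48 (4 h). On slide 1 the epithelial medians were -0.46 (8 h), -0.28 (12 h) and -0.35 (24 h). The sign of the epithelial median held in all 13 alternative settings at 30 min alone. At each other time point it turned in 1 to 3 of them, and at 12 h it reached 0.34. KRT8 was lowest among the epithelial markers at 16 h (-2.28) and KRT19 highest (0.61), COL1A1 and DCN were at -1.38 and 0.38, and PTPRC was the highest leukocyte marker at 1.65. The part of these differences in the subunit values of slide 2 was not tested.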

How the data were processed

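Total RNA of the control and of 7 heat-stressed time points was labelled with Cy3 and hybridised, 1 array per condition, to a bovine array. Per the file headers, the deposited intensity values (processed signals) came from Agilent Feature Extraction 9.5.3.1, which subtracts the background, and probe positions refer to Btau 3.1. The authors also deposited a table of log2 values, normalised to the 75th percentile and centred per probe, whose difference from CTR was added to the CTR level for 30 min. For the other arrays, log2 of the intensity minus the 75th percentile of the array was taken and spots of 1 probe were averaged. The 22 probes differed by at most 0.018 (log2) between both sources. A gene's change was the mean over its probes that were well above background in CTR and at that time, outside the dark region of the CTR array. For a difference within a slide, probes had to be well above background on both arrays and in a dark position of neither. All 3 CCT4 probes entered there. A change of 2-fold was used as the threshold. With 1 array per condition no test was run, and the error given is the spread between the spots of 1 probe, which covers neither culture nor labelling. The number of arrays limits the precision. Python 3.11.15, pandas 2.3.3, R 4.3.3 and limma 3.58.1 (normexp, quantile) were used, and the steps were tested on simulated data. All 8 symbols matched the buffalo RefSeq table. Members, lists and the named genes (all subunits and folding cofactors, and from each other list the highest and lowest gene at 16 h, of which 1 is not reported here) were chosen with earlier results of these data known. The 5′ and 3′ comparisons, the local rule for the dark region and the contrasts with 24 h were chosen after seeing the data.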

Additional observations from a re-analysis of the deposited data

How the results depend on the processing

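No paired analysis was possible because each condition had 1 array. Of the values that answer a comparison, 253 moved by less than the spread between spots (counts: by less than 1.5 times) under an alternative, and 31 moved by more. Centring on array medians gave TRiC median changes of 0.55 (30 min), 0.34 (2 h), 0.93 (4 h) and -0.89 (24 h), 4 subunit values at least 2-fold higher, and same-slide differences of 1.07 (30 min minus 16 h), 0.84 (2 h minus 16 h), 1.58 (4 h minus 16 h), 1.25 (8 h minus 24 h) and 1.06 (12 h minus 24 h). Normexp gave 0.26 (2 h), 0.44 (4 h) and 0.30 (12 h), with 0.65 for 2 h minus 16 h and 0.98 for 4 h minus 16 h. The 30 min scanner file gave 2.67 at 30 min, 3.05 for 30 min minus 16 h and 5 values at least 2-fold higher. The change relative to all genes put the median at 2 h at 0.027, and the 5′-most probes gave 0.30 at 12 h. The count of subunit values at least 2-fold lower, 2, became 1 with the percentile over bright probes, with quantile normalization, relative to all genes and with the 3′-most probe, 4 without the filter on dim probes, with probes bright on every array and with the brightest probe, 8 with the 5′-most probe, and 0 at 3-fold. With the dark region kept, or set by the local median alone, 3 values were at least 2-fold higher instead of 0. Apart from the settings' own construction, the cause of these shifts was not tested. Of single subunit values, 139 of 781 moved by more than the spread. Dim signal limits the 4 probes not well above background on all 8 arrays.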
